A study of Mus musculus with 34 samples.

Results

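Excision, mismatch and end-joining repair genes were followed across the first days of mouse development in single embryos that carried extra CHK1. The set holds 37 genes, namely 5 of mismatch repair, 14 of base excision repair, 9 of nucleotide excision repair and 9 of end joining, and was defined by gene symbol. All 37 symbols were found among the 49686 of the zygote and late 2-cell tables and among the 51734 of the blastocyst table. Each embryo received mRNA for the checkpoint kinase CHK1 by injection as an early zygote, in the wild-type form (WT groups) or with the R442Q substitution (R442Q groups), so that no group was without injected CHK1. The groups were 5 WT and 6 R442Q zygotes and 4 WT and 5 R442Q late 2-cell embryos, all without inhibitor, and 7 WT and 7 R442Q blastocysts whose culture, in both genotypes, held 30 nM of an inhibitor of CHK1. By its title, the study asked how the transcriptome of preimplantation embryos responds when the DNA damage checkpoint is perturbed. Each library was 1 embryo. The labels name no strain, mother, litter or sequencing batch, and an uninjected group was not analysed here, so the p-values measure the spread between these embryos.

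The members belong to pathways that remove different kinds of damage. In mismatch repair, MutS proteins (Msh3 and Msh6 are partners in the complexes that find small loops and mispaired bases) hand the site to MutL proteins (Pms1, Pms2, Mlh3). In base excision repair, a DNA glycosylase (Ung, Smug1, Ogg1, Mutyh, Nthl1, Neil1, Neil2, Neil3) cuts out a damaged or wrong base, the endonuclease encoded by Apex1 opens the strand, Polb fills the gap, Lig3 with its scaffold Xrcc1 seals it, and Parp1 and Parp2 sense the break. Nucleotide excision repair takes out bulky lesions, with Rad23b in damage recognition, Xpa in verification, the helicases Ercc2 and Ercc3, the nucleases Ercc5 and Ercc1-Ercc4, and Ercc6 and Ercc8 coupling it to stalled transcription. End joining religates double-strand breaks through the Ku proteins (Xrcc5, Xrcc6), the kinase Prkdc, the nuclease Dclre1c and the ligase complex of Lig4, Xrcc4 and Nhej1, while Trp53bp1 and Rif1 shield broken ends from resection. The mouse zygote starts with RNA stored in the oocyte, most of which is degraded by the 2-cell stage, when the embryo's own genome is activated.

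The 11 zygote libraries held 7183632 to 11296522 counts and the 9 late 2-cell libraries 5727956 to 8916343. For blastocysts FPKM (fragments scaled by transcript length and library size) were used, so their depth is unknown. Levels of 1 gene between groups are given as CPM (counts per 1000000 of the library's total), and levels between genes as FPKM. The stage labels went with their markers. The summed FPKM of 8 oocyte and zygote markers was 2149 to 5015 in zygotes, 219 to 859 in late 2-cell embryos and 17.7 to 70.5 in blastocysts, and that of 7 trophectoderm markers was 1250 to 24288 in blastocysts and at most 75.6 in any earlier embryo. Chek1, whose reads hold both the injected and the embryo's own RNA, stood at 4593 to 8653 CPM in WT and 5597 to 7171 CPM in R442Q zygotes, at 396 to 675 and 259 to 720.0 CPM at late 2-cell, and at 7.05 to 38.2 and 13.3 to 23.6 FPKM in blastocysts. R442Q blastocyst replicate 7 stood apart, with 8189 genes at an FPKM of 1 or more against at least 9852 in the others, and was alone the lowest of 14 blastocysts in 18 of the 37 members. Each stage was deposited as a table of its own, and a stage cannot be told apart from how its table was made.

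Upstream sequence is shown for 5 members on which the results turn. Pms1 and Ercc5 passed as lower in R442Q zygotes, Ung passed at late 2-cell, Ung, Ercc6 and Neil3 were the members whose genotype difference changed between stages, and Neil3 had the highest level in zygotes and the largest fall after them. The runs come from the 200 bases before the RefSeq gene start (GRCm38.p6) and are read 5' to 3' on the gene's strand, and each is the longest stretch of them that the GENCODE annotation places outside any UTR. Motif matches on either strand are in capitals. The motifs searched were the GC box bound by SP1 (GGGCGG), the CCAAT box, the E2F site (TTTCCCGC or TTTGGCGC) and the core promoter box TATAAA. The runs lie at chr1:53297029-53297094 (minus strand) for Pms1, chr1:44147544-44147743 (plus strand) for Ercc5, chr5:114130235-114130385 (plus strand) for Ung, chr14:32513321-32513520 (plus strand) for Ercc6 and chr8:53639066-53639265 (minus strand) for Neil3. The genes themselves span chr1:53189187-53297018 (Pms1), chr1:44147744-44181260 (Ercc5), chr5:114130386-114139323 (Ung), chr14:32513521-32580990 (Ercc6) and chr8:53586867-53639065 (Neil3) in that annotation.
Pms1: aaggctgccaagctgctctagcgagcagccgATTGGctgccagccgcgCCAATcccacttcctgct
Ercc5: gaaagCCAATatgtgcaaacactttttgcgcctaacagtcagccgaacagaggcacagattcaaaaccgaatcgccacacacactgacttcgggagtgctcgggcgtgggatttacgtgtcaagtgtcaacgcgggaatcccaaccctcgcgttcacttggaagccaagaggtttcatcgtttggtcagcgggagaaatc
Ung: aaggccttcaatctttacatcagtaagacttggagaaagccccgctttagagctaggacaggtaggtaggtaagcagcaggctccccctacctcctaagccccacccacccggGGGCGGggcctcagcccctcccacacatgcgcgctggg
Ercc6: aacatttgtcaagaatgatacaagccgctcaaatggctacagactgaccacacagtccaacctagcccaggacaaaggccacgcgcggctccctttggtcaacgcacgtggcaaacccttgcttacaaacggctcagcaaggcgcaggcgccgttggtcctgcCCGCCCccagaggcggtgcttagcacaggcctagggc
Neil3: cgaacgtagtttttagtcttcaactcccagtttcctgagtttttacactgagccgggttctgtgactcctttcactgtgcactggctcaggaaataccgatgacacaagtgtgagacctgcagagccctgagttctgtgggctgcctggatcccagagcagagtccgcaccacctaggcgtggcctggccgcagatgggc

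The Pms1 run held 2 CCAAT boxes and that of Ercc5 held 1, the Ung and Ercc6 runs held 1 GC box each, and none of these letters occurred in the Neil3 run. Of the 200 bases before Pms1, 94 belong to UTRs of Ormdl1 and Gm28778 on the opposite strand. RefSeq promoters of 300 bases (250 before to 50 after the start) were at hand for 32 of the 37 members, in 35 windows. A GC box occurred in 71.4% of these 35 windows and in 35.7% of all 32851 promoters, a CCAAT box in 60.0% and 37.4%, an E2F site in 8.57% and 1.56%, and TATAAA in 2.86% and 13.6%. These are matches of letters and were not tested, and embryos at these stages may start transcription elsewhere.

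In zygotes the best represented member was Neil3, a glycosylase for oxidised bases, with a mean of 277 ± 58.7 FPKM in WT (SD, n = 5) and 228 ± 52.3 FPKM in R442Q (SD, n = 6). Its level ranked 345th of 49686 symbols in WT zygotes. Trp53bp1 followed at 138 ± 38.5 FPKM in WT zygotes, ahead of Polb at 80.6 ± 13.5 and Ung at 70.7 ± 25.3. Polb and Ung did not differ beyond their spread. At the other end stood Mlh3 at 0.426 ± 0.181 FPKM and Prkdc at 0.56 ± 0.163 (23 to 40 counts per embryo), the catalytic kinase of end joining, while the Ku genes stood at 20.1 ± 5.79 (Xrcc5) and 28.02 ± 5.76 FPKM (Xrcc6).

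The order was different at late 2-cell. Apex1 led with 94.8 ± 20.98 FPKM in WT embryos (SD, n = 4), ahead of Parp2 at 60.6 ± 23.5, Trp53bp1 at 53.96 ± 16.2 and Pms2 at 52.6 ± 18.4. The last 3 overlapped, and Apex1, at 73.97 to 123.4 FPKM, overlapped Parp2 and Pms2, which were both above it in WT replicate 4. Neil1, which also removes oxidised bases, had 0 counts in all 5 R442Q late 2-cell embryos and in 2 of the 4 WT ones. A count of 0 allows up to 3 counts, or 0.336 to 0.524 CPM in these R442Q libraries, and the WT mean of 0.319 CPM lay below that limit, so no fold is given. In blastocysts the highest members were Apex1 at 339 ± 171 FPKM in WT (SD, n = 7) and Parp1 at 276 ± 90.8, followed by Xrcc1 at 86.9 ± 10.9 and Ung at 85.9 ± 43.5. The neighbours in each of these pairs overlapped. Apex1 levels are uncertain, because 65.6% of its 50-base stretches occur in other annotated genes, mainly the overlapping Pip4p1, and the same holds in part for Lig3 (30.1%, Rffl), Ercc2 (26.1%, Klc3) and Trp53bp1 (20.8%, Tubgcp4).

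**Figure D1:**
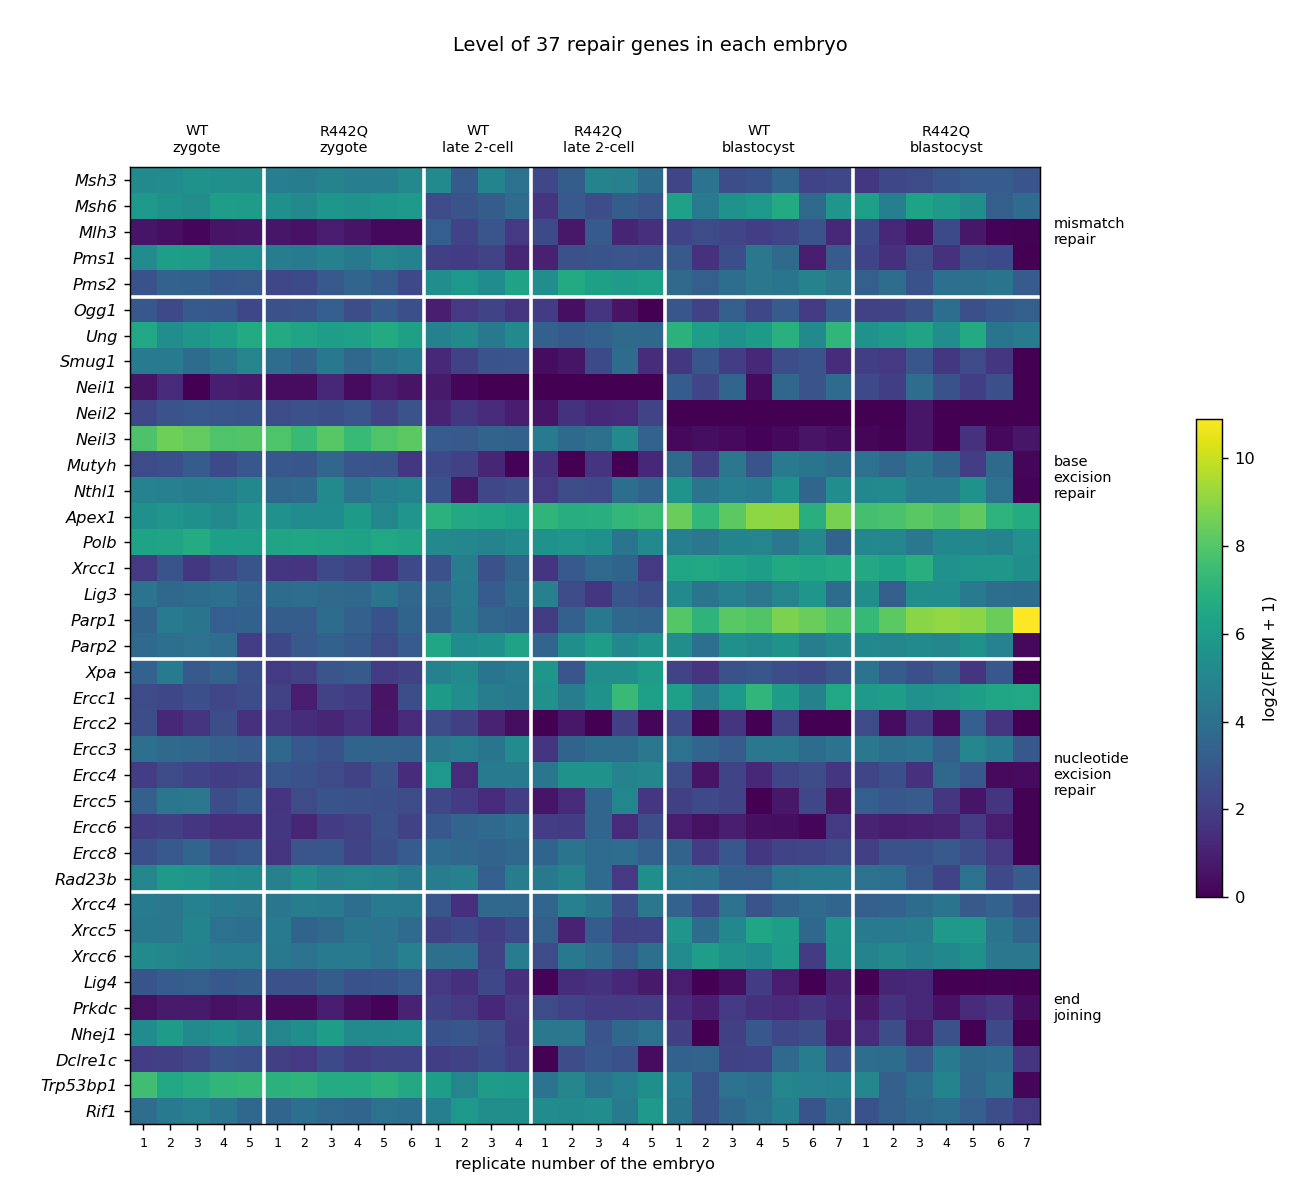
Level of the 37 genes (rows, by pathway) in each of the 34 embryos (columns, by group and replicate number), as log2(FPKM + 1) on a colour scale. Neil3 is bright in the 11 zygotes and dark in the blastocysts, Parp1 and Apex1 are brightest in the blastocysts, and R442Q blastocyst replicate 7 is dark in many rows.

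The question of how the set changed between the zygote and the late 2-cell embryo was put to both genotypes in 1 fit (edgeR's quasi-likelihood test on counts, 4 groups, Benjamini-Hochberg adjusted p under 0.05). In WT embryos 26 of the 36 members tested passed, 10 higher and 16 lower at late 2-cell, which is 72.2% of them against 61.2% of all 16199 genes tested. By direction, 27.8% of members were higher against 36.2% of all genes, and 44.4% were lower against 25.0%. An unadjusted p under 0.05 was found for 27 of the 36, against 65.3% of all genes. The median log2 fold change was -0.86 over the members and 0.34 over all genes. Neil1 failed the filter on low counts and was not tested. Since CPM is a share of a library, a lower value does not separate less RNA of 1 gene from more RNA of others. RLE in place of TMM scaling moved the median of all genes by 0.12 in the R442Q stage change, by -0.04 in that of WT and by 0.16 in the genotype by stage interaction, and the changes below stand relative to that.

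All 5 mismatch repair genes changed between the stages in WT embryos, 3 downwards and 2 upwards, where 61.2% of all genes tested changed (25.0% lower and 36.2% higher). Pms1 fell from 75.7, 112, 81.4, 74.6 and 78.8 CPM in the 5 WT zygotes to 5.01, 4.94, 6.48 and 1.87 CPM in the 4 WT late 2-cell embryos, a log2 fold change of -4.29 ± 0.47 SE, adjusted p = 4.72e-08. Every late 2-cell value lay far below every zygote value. Msh6 fell from 228, 199, 171, 273 and 262 CPM to 20.9, 25.99, 35.7 and 55.3 CPM (-2.78 ± 0.34 SE, adjusted p = 2.61e-07), and Msh3, its alternative partner in damage recognition, fell less (-1.65 ± 0.42 SE, adjusted p = 0.00188). In the other direction, Pms2 rose from between 16.2 and 22.3 CPM in zygotes to between 74.4 and 125 CPM (2.23 ± 0.27 SE, adjusted p = 2.07e-07). Mlh3, best known for its role in meiotic recombination, rose from 1.36, 1.38, 0.630, 2.30 and 1.47 CPM to 27.01, 15.4, 21.3 and 10.9 CPM (3.59 ± 0.68 SE, adjusted p = 8.45e-05). The WT groups did not overlap in CPM for any of the 5 (in FPKM Msh3 overlapped), but the zygote values of Mlh3 rest on 5 to 17 counts each. How many of all genes separated the stages in this way was not counted, here or for the members below.

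Of the 13 base excision repair members tested 6 fell and 2 rose, or 46.2% and 15.4%, beside 25.0% and 36.2% of all genes. The 6 that fell were the glycosylase genes Neil3, Nthl1, Smug1, Neil2 and Ung and the polymerase gene Polb, while the glycosylase genes Ogg1 and Mutyh did not pass. Neil3 fell from 317, 477, 424, 331 and 348 CPM to 11.0, 12.05, 18.9 and 11.6 CPM, a 29.8-fold difference (-4.90 ± 0.31 SE, adjusted p = 1.18e-11). Nthl1, a glycosylase for oxidised pyrimidines, fell from 24.8, 23.2, 20.8, 22.7 and 30.4 CPM to 5.34, 0.581, 3.70 and 4.59 CPM (-2.88 ± 0.57 SE, adjusted p = 0.000147). For both genes no WT late 2-cell embryo reached the lowest WT zygote. Smug1 (-2.18 ± 0.57 SE, adjusted p = 0.00232), Neil2 (-1.98 ± 0.41 SE, adjusted p = 0.000257), the gap-filling polymerase gene Polb (-1.32 ± 0.25 SE, adjusted p = 0.000107) and Ung (-1.26 ± 0.28 SE, adjusted p = 0.000497) fell by smaller amounts. The 2 members that rose act downstream of the glycosylases. Parp2 rose from 12.7, 12.1, 9.45, 10.1 and 5.20 CPM to 83.9, 47.8, 56.6 and 71.4 CPM (2.63 ± 0.38 SE, adjusted p = 2.70e-06), without overlap, and Apex1 rose from between 36.8 and 50.6 CPM in zygotes to between 70.7 and 119 CPM (0.96 ± 0.23 SE, adjusted p = 0.00116). Parp1 did not pass, at 25.7 to 36.03 CPM in zygotes and 23.98 to 62.4 CPM at late 2-cell (0.25 ± 0.36 SE, adjusted p = 0.555).

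Of the 9 nucleotide excision repair members tested 4 rose and 1 fell, or 44.4% and 11.1%, beside 36.2% and 25.0% of all genes. Ercc4, the nuclease subunit that cuts on the 5' side of a lesion, stood at 10.8, 14.5, 11.97, 11.6 and 11.1 CPM in WT zygotes and at 239.9, 7.55, 100.5 and 98.8 CPM at late 2-cell (3.09 ± 0.53 SE, adjusted p = 2.47e-05). Here 1 embryo decided the overlap, since WT late 2-cell replicate 2 stayed below every zygote while the other 3 lay far above them. Without it the log2 fold change was 3.32. Its partner Ercc1 rose from 2.35, 3.10, 2.39, 3.65 and 3.73 CPM to 30.2, 17.6, 12.3 and 7.48 CPM (2.36 ± 0.54 SE, adjusted p = 0.000610), with no overlap but only 19 to 33 counts per zygote. Ercc3, the helicase shared with transcription factor TFIIH (1.53 ± 0.45 SE, adjusted p = 0.00514), and Ercc6 (1.36 ± 0.34 SE, adjusted p = 0.00137) rose too. Ercc5, which cuts on the 3' side, fell from between 18.9 and 27.2 CPM in zygotes to between 3.55 and 14.6 CPM (-1.84 ± 0.54 SE, adjusted p = 0.00523).

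End joining had 6 members lower and 2 higher of 9 tested, or 66.7% and 22.2%, beside 25.0% and 36.2% of all genes. Nhej1, which stabilises the ligase complex, fell from 33.01, 55.97, 31.4, 38.5 and 28.6 CPM to 5.18, 5.95, 4.48 and 2.04 CPM (-3.16 ± 0.41 SE, adjusted p = 6.61e-07), with no overlap. Both Ku genes fell, Xrcc5 by more (-2.39 ± 0.44 SE, adjusted p = 6.74e-05) than Xrcc6 (-1.52 ± 0.41 SE, adjusted p = 0.00285), and so did both other subunits of the ligase complex, Lig4 (-1.79 ± 0.46 SE, adjusted p = 0.00208) and Xrcc4 (-1.73 ± 0.42 SE, adjusted p = 0.00125). The fall of Trp53bp1 was the smallest that passed (-0.67 ± 0.27 SE, adjusted p = 0.0352), and its groups overlapped. With the replicate number as a block the call of Trp53bp1 was lost (adjusted p = 0.0974). Prkdc rose from 4.95, 4.60, 4.54, 3.11 and 3.28 CPM to 34.9, 33.97, 18.2 and 30.96 CPM (2.77 ± 0.45 SE, adjusted p = 1.39e-05), from 23 to 40 counts per zygote. Rif1 rose from between 82.95 and 159 CPM in zygotes to between 189.6 and 379 CPM (1.16 ± 0.30 SE, adjusted p = 0.00187). For Prkdc and Rif1 the WT groups did not overlap in CPM, and in FPKM those of Rif1 did.

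In R442Q embryos, which share no library with WT, 30 of 36 members passed, 10 higher and 20 lower, or 83.3% against 65.1% of all genes (27.8% against 35.3% higher, 55.6% against 29.8% lower), and 30 had an unadjusted p under 0.05 (68.1% of all genes). Of the 36, 8 rose in both genotypes, 15 fell in both, none passed in opposite directions, 3 passed in WT alone, 7 in R442Q alone and 3 in neither. These counts were not made over all genes, so the agreement is not shown to be particular to the members. Passing in 1 genotype alone does not show a difference between them, and the test of that difference is given further on. Mismatch repair had the same count (2 higher, 3 lower of 5), as did nucleotide excision repair (4 and 1 of 9) and end joining (2 and 6 of 9), while base excision repair had 2 higher and 10 lower of 13. In nucleotide excision repair the genes behind the equal counts were not the same: Ercc1 and Ercc4 passed in both genotypes, Ercc3, Ercc5 and Ercc6 in WT, and Xpa, Ercc8 (both higher) and Rad23b (lower) in R442Q. The largest rise in R442Q was that of Ercc1 (3.78 ± 0.51 SE, adjusted p = 8.84e-07) and the largest fall again that of Neil3 (-3.81 ± 0.26 SE, adjusted p = 2.15e-11).

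**Figure D2:**
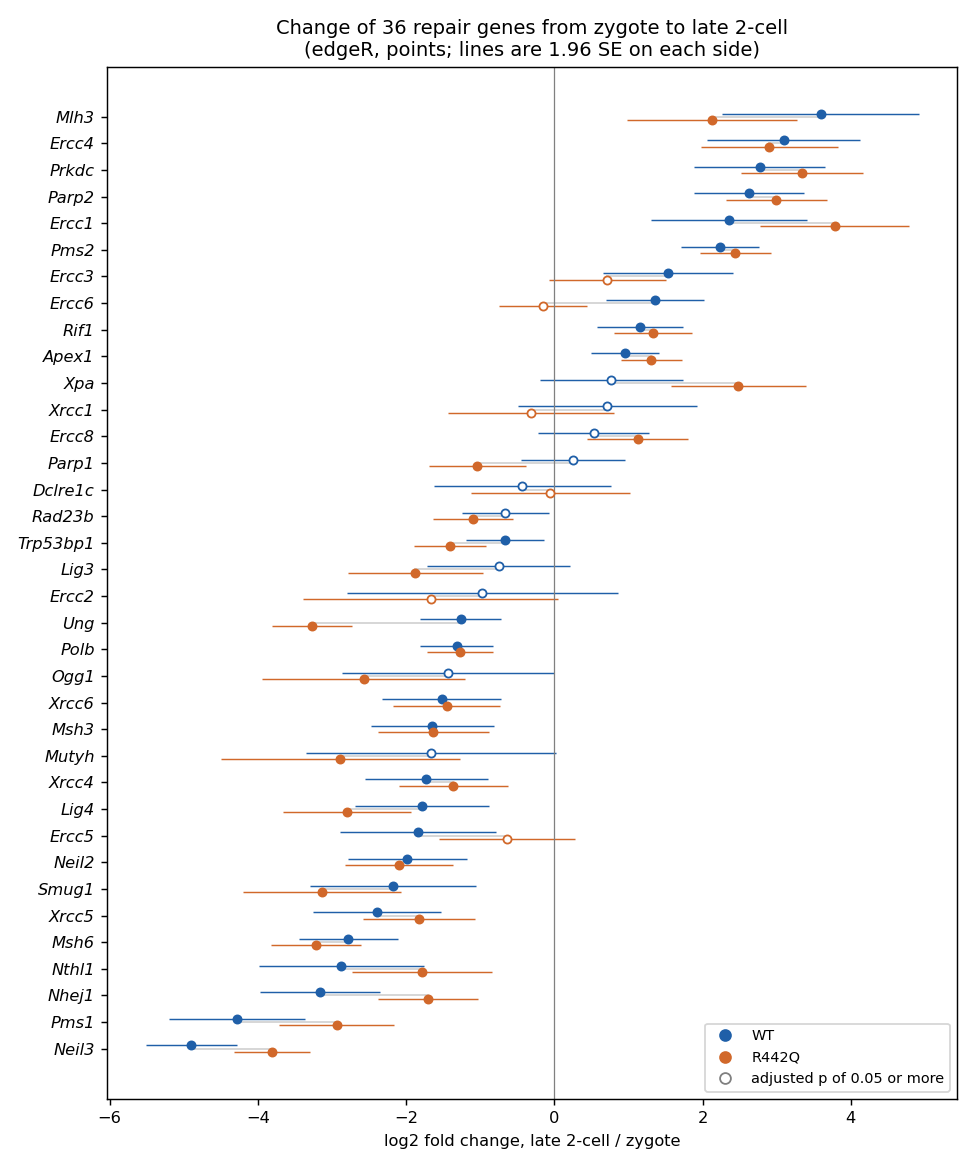
Log2 fold change from zygote to late 2-cell (x axis) of the 36 tested members (y axis, ordered by the WT value) in WT (blue) and R442Q (orange), with lines of 1.96 SE on each side. Open points did not pass the adjusted threshold, Neil3 and Pms1 are lowest in WT, and Ung and Ercc6 have widely separated WT and R442Q points.

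Genotype was then compared within each stage. In zygotes 4 of 36 members passed, all lower in R442Q, namely Pms1, Msh3, Ercc5 and Rif1 (edgeR's quasi-likelihood test on the 11 zygotes). That is 11.1% of members against 13.2% of all 12420 genes tested, so the count of calls did not set the members apart. By direction it was 0% higher against 6.3% of all genes, and 11.1% lower against 6.92%. Of the 36, 24 had a negative log2 fold change, and the median was -0.17 over the members and 0.01 over all genes. The fitted values include TMM scaling, which put the log2 fold change 0.12 above the log2 ratio of plain CPM in zygotes and 0.10 above it at late 2-cell (median over genes above 10 CPM).

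Pms1 stood at 75.7, 112, 81.4, 74.6 and 78.8 CPM in WT zygotes, and in R442Q zygotes its lowest, median and highest values were 26.8, 40.8 and 46.9 CPM (-1.01 ± 0.16 SE, adjusted p = 0.000862, 2.01-fold lower). The highest R442Q zygote lay well under the lowest WT zygote. Msh3 stood at 105, 135, 139, 131 and 123 CPM in WT and at 69.6, 81.01 and 100.3 CPM (lowest, median, highest) in R442Q zygotes (-0.49 ± 0.11 SE, adjusted p = 0.00856, 1.41-fold lower). These groups did not overlap either, though the nearest values lay close together. Pms1 overlaps Gm28777 on the opposite strand, and whether the counting used strand is not given in the sources used here.

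The other MutS and MutL members did not pass in zygotes, with log2 fold changes of -0.06 for Msh6, -0.24 for Pms2 and 0.39 for Mlh3. Ercc5 stood at 26.7, 27.2, 25.6, 18.9 and 26.8 CPM in WT and at 6.64, 10.1 and 18.2 CPM (lowest, median, highest) in R442Q zygotes (-1.01 ± 0.25 SE, adjusted p = 0.0131). Only WT replicate 4 came near the R442Q values, and the groups did not overlap in CPM. In FPKM they did, since that embryo had 5.08, below the 6.03, 5.54 and 5.27 of R442Q replicates 3, 4 and 5. Rif1 stood at 105, 159, 158, 116 and 82.95 CPM in WT and at 49.8, 73.4 and 88.8 CPM (lowest, median, highest) in R442Q zygotes (-0.62 ± 0.17 SE, adjusted p = 0.0222). Its groups overlapped, because WT replicate 5 fell among the R442Q zygotes. Without WT replicate 2 or 3 the adjusted p of Rif1 was 0.0645 or 0.0622, and with limma on FPKM it was 0.183 (the ratio of R442Q to WT means was 0.595 in CPM and 0.711 in FPKM). Not overlapping in CPM were 3 of 36 members, against 9.39% of all genes.

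A further 4 members had an unadjusted p under 0.05 (8 in all, or 22.2% against 27.1% of all genes) and failed the adjustment. Xpa had a log2 fold change of -1.15 ± 0.38 SE, adjusted p = 0.0544, Xrcc6 of -0.46 ± 0.15 SE, adjusted p = 0.0553, Parp2 of -0.83 ± 0.29 SE, adjusted p = 0.0655 and Ercc2 of -0.87 ± 0.36 SE, adjusted p = 0.130. Xpa passed with DESeq2 (adjusted p = 0.0304), without the filter on low counts (0.0388), with length and GC trends removed (0.0478) and with limma on FPKM (0.0324), and it did not with the replicate block (0.115), RLE scaling (0.0582) or the stages fitted together (0.274). Xrcc6 passed with DESeq2 and with R442Q zygote replicate 6 left out. None of the 13 base excision repair members tested passed in this comparison with edgeR on all 11 zygotes, and 1, Parp2, had an unadjusted p under 0.05. Parp2 passed with DESeq2 and with WT zygote replicate 5 left out. For the abundant ones the interval of 1.96 SE on each side ran from -0.43 to 0.15 for Neil3, from -0.07 to 0.40 for Polb and from -0.08 to 0.78 for Ung.

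Stage markers moved with genotype in the same zygotes. Of 8 oocyte and zygote markers tested 3 were called lower in R442Q and 0 higher, and their summed FPKM was 3321 to 5015 in WT and 2149 to 3891 in R442Q zygotes, with no marker at 0 in either group. Of 6 markers of the 2-cell stage tested 5 were called higher, with a sum of 22.8 to 67.9 FPKM in WT and 38.7 to 137 FPKM in R442Q zygotes, again with none at 0 throughout. Cumulus cell markers summed to 20.1 to 24.1 FPKM in WT and 14.7 to 19.0 FPKM in R442Q zygotes, with 0 of 4 tested called and Ptx3 and Cd44 at 0 in all WT zygotes. The part of these shifts in the lower Pms1, Msh3, Ercc5 and Rif1 values was not tested. All 4 of these calls were lost when zygotes and late 2-cell embryos were fitted together, with 16199 genes tested in place of 12420 and 1 estimate of the spread (adjusted p of 0.192, 0.726, 0.378 and 0.353), while the log2 fold changes stayed at -0.98, -0.47, -0.98 and -0.60.

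**Figure D3:**
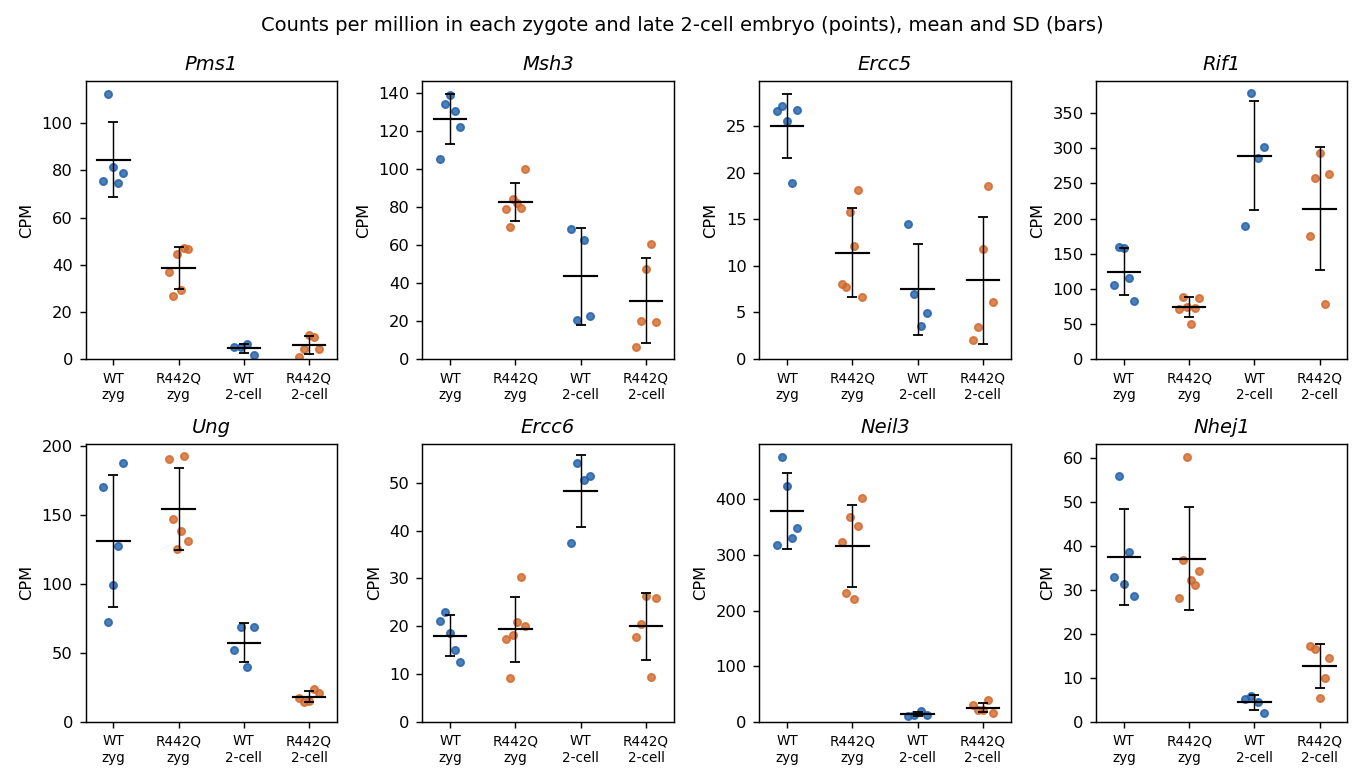
CPM of 8 members in each zygote and late 2-cell embryo (points; WT blue, R442Q orange), with the mean (wide line) and SD (bars) of each group. Pms1, Msh3 and Ercc5 separate the genotypes in zygotes, and Ung and Ercc6 separate them at late 2-cell.

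At late 2-cell 1 of 36 members passed, in the lower direction (2.78% against 4.18% of all 13883 genes tested, of which 1.22% were higher and 2.95% lower). Ung, the main glycosylase for uracil in DNA, stood at 52.1, 68.7, 39.8 and 68.5 CPM in WT and at 17.1, 13.97, 15.3, 23.4 and 20.97 CPM in R442Q embryos (-1.56 ± 0.35 SE, adjusted p = 0.0251, 2.96-fold lower). Each of the 5 R442Q embryos lay below each of the 4 WT embryos. Ung shares almost no sequence with other genes (0.1% of its 50-base stretches). The call was lost in several alternatives: the adjusted p was 0.101 without WT replicate 2, 0.0965 without WT replicate 4, 0.0562 without R442Q replicate 2, 0.0544 with trends in transcript length and GC content removed and 0.0968 with the replicate block. The log2 fold change was -1.72 to -1.45 across the embryos left out, -1.50 with the trends removed and -1.62 with the block. Across genes the late 2-cell genotype difference had a correlation of -0.305 with log2 transcript length and of -0.269 with GC content (in zygotes -0.029 and -0.027), where genes are not independent replicates.

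Ercc6, which recruits nucleotide excision repair to stalled RNA polymerase, was the other member whose groups did not overlap in CPM at late 2-cell (2 of 36, against 12.4% of all genes). It stood at 37.4, 54.2, 50.6 and 51.4 CPM in WT and 17.8, 20.4, 26.4, 9.38 and 25.9 CPM in R442Q embryos, and did not pass (-1.20 ± 0.38 SE, adjusted p = 0.0865). In FPKM its groups overlapped, with R442Q replicate 3 at 10.8 and WT replicates 1 and 2 at 6.97 and 10.76. With an unadjusted p under 0.05 were 6 members (16.7% against 21.0%), of which Parp1 (-1.44 ± 0.49 SE, adjusted p = 0.109) and Trp53bp1 (-0.77 ± 0.33 SE, adjusted p = 0.197) had lower values in R442Q, and Nhej1 (1.65 ± 0.62 SE, adjusted p = 0.144) and Neil3 (1.03 ± 0.43 SE, adjusted p = 0.189) higher ones. The unit matters for some of these. Summed over a library, FPKM came to 712234 to 742246 in WT and 814376 to 976830 in R442Q late 2-cell embryos. The genotypes thus do not share a common FPKM total at this stage. For Parp1 the ratio of R442Q to WT means was 0.352 in CPM but 0.844 in FPKM, for Smug1 it was 0.471 and 0.96, and for Ercc5 1.12 and 3.29. The spread between embryos was wider than in zygotes: the median coefficient of variation of members with a mean of at least 1 FPKM was 38.7% in WT and 52.8% in R442Q late 2-cell embryos, against 26.1% and 24.3% in zygotes. Over all genes it was 45.6% and 62.0% at late 2-cell and 26.1% and 28.3% in zygotes. R442Q late 2-cell replicate 1 was alone the lowest of the 9 embryos in 13 of 37 members, and without it Lig3 passed as well as Ung.

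The summed FPKM of the oocyte and zygote markers was 219 to 629 in WT and 340 to 859 in R442Q embryos (1 of 8 tested called, higher), and that of the 2-cell markers 183 to 1592 in WT and 761 to 2596 in R442Q embryos (0 of 7 called), with none at 0 throughout a group. Cumulus cell markers summed to 48.5 to 80.7 FPKM in WT and 32.7 to 90.1 FPKM in R442Q embryos (1 of 3 tested called, lower), with Cd44, Fshr and Inhba at 0 in every embryo of both groups and Ptx3 at 0 in all WT embryos. These sums are in FPKM, and the FPKM totals of R442Q late 2-cell embryos were all higher than those of WT, as given above. The part of these markers in the lower Ung values was not tested.

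**Figure D4:**
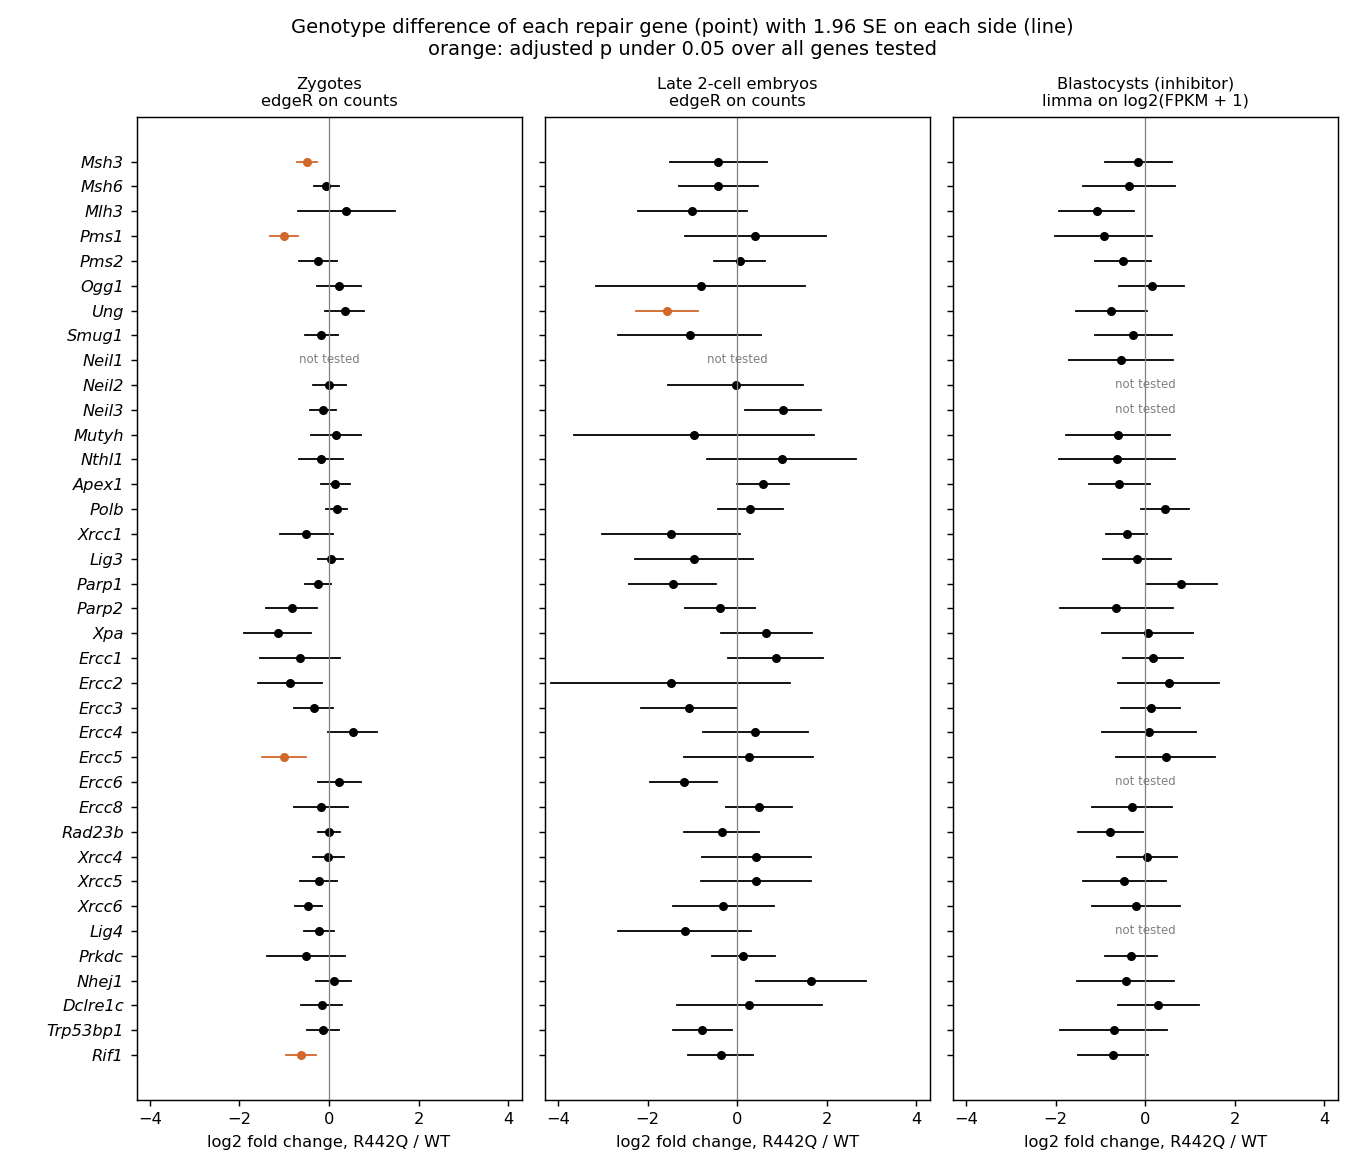
Log2 fold change of R442Q over WT (x axis) of each member (y axis) in zygotes, late 2-cell embryos and inhibitor-treated blastocysts, with lines of 1.96 SE on each side; orange marks an adjusted p under 0.05. Pms1, Msh3, Ercc5 and Rif1 are orange in zygotes, Ung at late 2-cell and no member in blastocysts, and the lines are longer at the later stages.

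Whether the genotype difference itself changed between the stages was tested by the interaction in the joint fit. It passed for 3 of 36 members, 1 positive and 2 negative (8.33% against 10.1% of all genes; 2.78% against 3.07% positive and 5.56% against 7.05% negative), and 8 had an unadjusted p under 0.05 (24.7% of all genes). Over all genes 497 were positive and 1142 negative with TMM scaling, and 707 and 917 with RLE. Of the members 2 were positive (Neil3 and Nhej1) and 1 negative (Ung) with RLE. With DESeq2 4 members were positive and 2 negative (1123 and 1300 of all genes). Nhej1 had an adjusted p of 0.0669 with TMM scaling, 0.0423 with RLE and 0.0127 with DESeq2. For Ung the R442Q minus WT difference was lower at late 2-cell by -2.01 ± 0.37 SE, adjusted p = 0.00150 on the log2 scale. In zygotes Ung ranged over 72.5 to 188 CPM in WT and 125 to 192 CPM in R442Q, so the R442Q zygotes lay within or just above the WT range, whereas the R442Q late 2-cell embryos lay below all WT ones. The adjusted p of the Ung interaction was at most 0.0130 over the 24 alternatives run. The removal of length and GC trends, with which Ung lost its late 2-cell call, was not run for the interaction.

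The interactions of Ercc6 and Neil3 were less firm. Ercc6 stood at 21.1, 22.99, 18.5, 15.0 and 12.4 CPM in WT zygotes and at 9.13, 19.1 and 30.4 CPM (lowest, median, highest) in R442Q zygotes, and its values at late 2-cell are given above (-1.51 ± 0.46 SE, adjusted p = 0.0358). All WT late 2-cell embryos lay above all WT zygotes, while the R442Q late 2-cell embryos lay within the range of the R442Q zygotes. Neil3 stood at 221, 337 and 402 CPM (lowest, median, highest) in R442Q zygotes and at 29.7, 21.8, 20.95, 38.4 and 16.6 CPM in R442Q late 2-cell embryos (1.09 ± 0.35 SE, adjusted p = 0.0479), a smaller fall than in WT. Leaving out 1 embryo ended the Ercc6 call in 15 of 20 cases and the Neil3 call in 12 of 20, and the Ercc6 call was also lost with RLE scaling (adjusted p = 0.0558). Both calls were lost without the filter on low counts (adjusted p = 0.0912 for Ercc6 and 0.0634 for Neil3) and with the replicate block (0.0789 and 0.0699).

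In blastocysts, all grown with the inhibitor, limma on log2(FPKM + 1) called 0 of 33 members, and 1 of all 11297 genes tested (0.00885%). Neil2, Neil3, Ercc6 and Lig4 fell below the filter of an FPKM of 1 in 7 embryos and were not tested. A member passed at an unadjusted p under 0.05 in 1 case (3.03% against 7.4% of all genes), and none separated the groups (0.416% of all genes did). Fold changes here are on the log2(FPKM + 1) scale, which understates low genes, and fewer cells in an embryo and less RNA per cell cannot be told apart. The 3 members with the smallest p are given as a description.

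Mlh3 had FPKM of 1.31, 3.80 and 5.95 (lowest, median, highest) in WT and 0.06, 0.62 and 4.54 in R442Q blastocysts (-1.08 ± 0.43 SE, adjusted p = 0.528). Of the 7 R442Q embryos 4 lay below the lowest WT embryo and 3 within the WT range. Rad23b, a partner of the lesion sensor XPC, had FPKM of 8.92, 18.5 and 21.3 in WT and 3.64, 7.67 and 15.9 in R442Q blastocysts (-0.78 ± 0.37 SE, adjusted p = 0.670), and here too 4 of the 7 R442Q embryos lay below the lowest WT embryo. Parp1 had FPKM of 137, 259 and 431 in WT and 158, 498 and 1921 in R442Q blastocysts (0.81 ± 0.40 SE, adjusted p = 0.696). Its highest value came from R442Q replicate 7, and without that embryo the log2 fold change was 0.46 (adjusted p = 0.917), against -0.91 for Mlh3 and -0.76 for Rad23b.

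Of the 33 tested members 22 had a negative log2 fold change and the median was -0.32, beside -0.10 over all genes. Without R442Q replicate 7 the count was 18 and the medians were -0.13 and 0.00. That embryo listed 8 members at 0 and 19 under an FPKM of 1, beside Parp1 at 1921 FPKM, Ercc1 at 89.4 and Apex1 at 103. Markers of trophectoderm summed to 3210 to 24288 FPKM in WT and 1250 to 12886 in R442Q blastocysts, those of the epiblast to 112 to 404 and 77.4 to 292, and those of primitive endoderm to 14.3 to 228 and 9.18 to 73.9. No marker of these 3 lists was at 0 throughout a group or was called (0 of 7, 0 of 6 and 0 of 4 tested), and their part in the values was not tested.

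Of 12 pairs of partner or related genes some exchanged order along development and others did not. The pairs were chosen after their levels had been seen, so the counts are a description. Pms1 had the higher FPKM than Pms2 in 11 of 11 zygotes, in 0 of 9 late 2-cell embryos and in 1 of 14 blastocysts. In WT zygotes their means were 47.9 ± 14.3 and 7.79 ± 1.76 FPKM, and at late 2-cell 2.72 ± 1.05 and 52.6 ± 18.4 FPKM. Msh3, the partner for larger loops, exceeded Msh6, the partner for mispaired bases, in 1 of 11 zygotes, 9 of 9 late 2-cell embryos and 0 of 14 blastocysts. In WT late 2-cell embryos Msh3 and Msh6 stood at 22.3 ± 12.7 and 8.05 ± 3.54 FPKM, while WT blastocysts held 7.06 ± 4.87 and 51.3 ± 29.8 FPKM.

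Parp1 exceeded Parp2 in 3 of 5 WT and 6 of 6 R442Q zygotes, with overlapping levels in WT, and then in 0 of 9 late 2-cell embryos and 14 of 14 blastocysts. Among the Neil glycosylases, Neil3 exceeded Neil1 in all 11 zygotes and all 9 late 2-cell embryos and in 1 of 14 blastocysts, where Neil1 had 7.57 ± 4.52 FPKM in WT and Neil3 0.254 ± 0.144. Xrcc1 lay below Polb in all 11 zygotes and all 9 late 2-cell embryos and above it in 13 of 14 blastocysts, with means of 4.22 ± 1.81 and 80.6 ± 13.5 FPKM in WT zygotes and 86.9 ± 10.9 and 23.9 ± 8.10 FPKM in WT blastocysts. Trp53bp1 exceeded Rif1 in 11 of 11 zygotes, in 3 of 4 WT and 1 of 5 R442Q late 2-cell embryos, and in 11 of 14 blastocysts. Ercc1 exceeded Ercc4 in 4 of 5 WT and 1 of 6 R442Q zygotes, in 7 of 9 late 2-cell embryos and in 14 of 14 blastocysts. Other pairs kept 1 order in nearly every embryo: Lig3 exceeded Lig4 and Xrcc4 exceeded Lig4 in every embryo of all 3 stages, and Ung exceeded Smug1 in 11 of 11, 8 of 9 and 14 of 14 at the 3 stages. Neil3 exceeded Neil2 in 11 of 11 zygotes and 9 of 9 late 2-cell embryos, and in blastocysts both averaged under 1 FPKM. The Ku genes had no fixed order, with Xrcc5 above Xrcc6 in 3 of 11 zygotes, 1 of 9 late 2-cell embryos, and 5 of 7 WT and 2 of 7 R442Q blastocysts. Counts given without a genotype hold both. The blastocyst table lists another set of symbols and embryos grown with inhibitor, so levels set across it are side by side only.

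**Figure D5:**
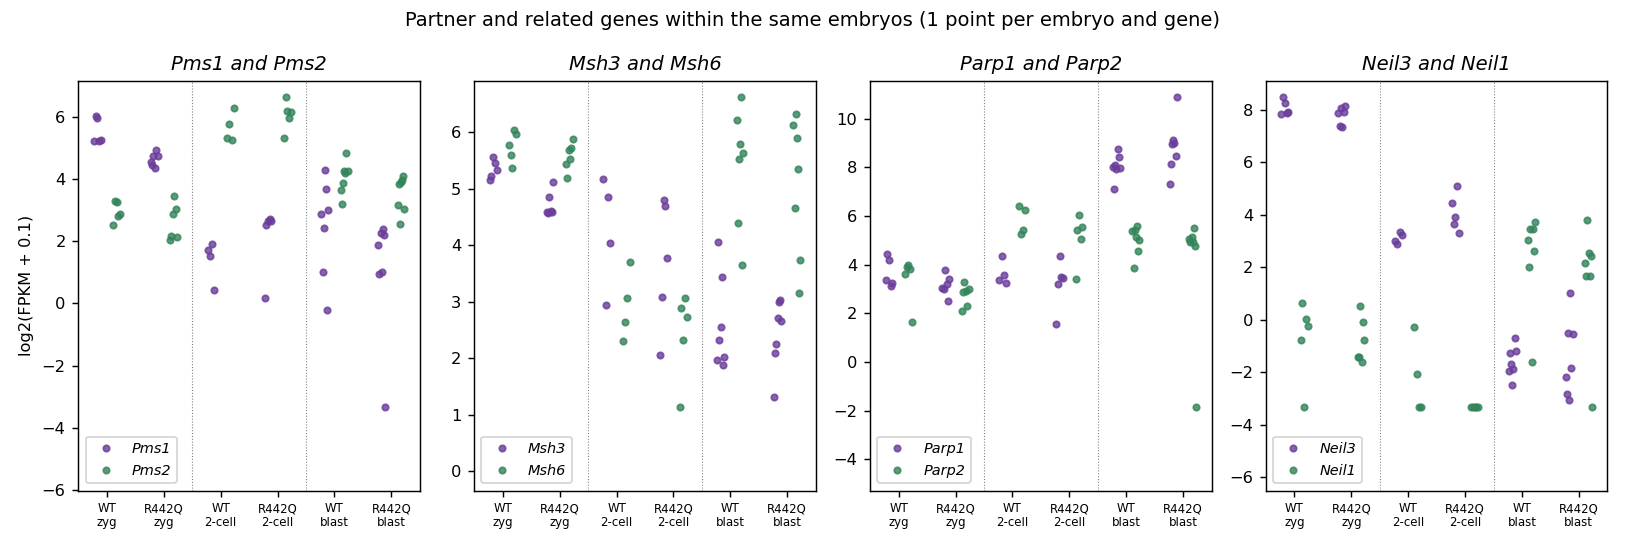
Level of 4 pairs of members, as log2(FPKM + 0.1), with 1 point per embryo and gene and dotted vertical lines between the stages. Pms1 lies above Pms2 in all 11 zygotes and below it in all 9 late 2-cell embryos, and Parp1 lies below Parp2 in all 9 late 2-cell embryos and above it in all 14 blastocysts.

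Other genes of the same pathways, 72 in a comparison list drawn up by function (71 of them listed in the zygote and late 2-cell tables), were read in the same fits. In zygotes 10 of 63 tested passed (15.9% against 13.2% of all genes), 3 higher and 7 lower in R442Q. The 4 with the smallest p were all lower: Aptx, which cleans blocked DNA ends (-0.93 ± 0.18 SE, adjusted p = 0.00320), and the TFIIH genes Gtf2h5 (-0.72 ± 0.15 SE, adjusted p = 0.00526), Cdk7 (-0.73 ± 0.16 SE, adjusted p = 0.00578) and Gtf2h2 (-0.74 ± 0.16 SE, adjusted p = 0.00694). At late 2-cell 4 of 67 passed (5.97% against 4.18%), namely Polm, an end-joining polymerase (-2.05 ± 0.34 SE, adjusted p = 0.00971), and Mdc1, a scaffold at breaks (-1.85 ± 0.45 SE, adjusted p = 0.0334), lower in R442Q, and the replication clamp gene Pcna (1.12 ± 0.29 SE, adjusted p = 0.0455) and Rpa3 (1.42 ± 0.38 SE, adjusted p = 0.0488) higher. Between zygote and late 2-cell 20 of 69 rose and 21 fell in WT (29.0% and 30.4% against 36.2% and 25.0% of all genes), 23 and 26 in R442Q (33.3% and 37.7% against 35.3% and 29.8%), and the interaction passed for 10 (14.5% against 10.1%, 4 positive, 6 negative), the smallest p being that of Polm (-2.66 ± 0.39 SE, adjusted p = 0.000225). In blastocysts limma called 0 of 63, and 3 had an unadjusted p under 0.05.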

How the data were processed

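RNA of single embryos was amplified with SMART-seq2 and made into Tn5 libraries, per the labels' protocols. The submitters' processing notes name RSEM and mm10. The aligner, annotation and use of strand are not given in the sources used here. The authors deposited expected counts per gene (90.7% of zygote and 89.9% of late 2-cell values whole) and FPKM, and for blastocysts the deposited FPKM were used. The expected counts were rounded to whole numbers. Depth was 7183632 to 11296522 counts in zygotes and 5727956 to 8916343 at late 2-cell, unknown for blastocysts, and floors cover counting error only.

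Counts were tested with edgeR 4.0.16 (quasi-likelihood, TMM, filterByExpr with a minimum count of 10) in R 4.3.3, each stage alone for genotype and the 4 zygote and late 2-cell groups together for the stage changes and the interaction. For blastocysts limma 3.58.1 with a variance trend was run on log2(FPKM + 1), keeping genes that reached an FPKM of 1 in 7 or more embryos. P-values were Benjamini-Hochberg adjusted over all genes tested, with a threshold of 0.05. Alternatives were DESeq2 1.42.0, RLE size factors, no filter, limma on FPKM, stages fitted together, length and GC trends removed (mgcv 1.9.3), a pseudocount of 0.1, columns scaled by TMM, each embryo left out and the replicate number as a block. The scripts were tested on simulated data.

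Samples were grouped by their titles. The replicate numbers in the titles were not taken to pair embryos, and the other numbers in the sample descriptions were not tested. Genes are named if they passed a genotype test or the interaction, were among the 5 largest rises or falls in the WT stage change or had the 3 smallest p in blastocysts, plus Chek1 and up to 4 genes by p of the comparison list of other repair genes. Members named beside these fill out their pathway. The members, the comparison list and the marker lists (oocyte and zygote, 2-cell, trophectoderm, epiblast, primitive endoderm, cumulus) were chosen with earlier results of these data known. Promoters came from the RefSeq table for GRCm38.p6, matched by symbol.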

Additional observations from a re-analysis of the deposited data

Results flagged for a closer look

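The genotype difference itself was called as differing between zygotes and late 2-cell embryos for 3 of 36 members (8.33% against 10.1% of all genes). The test was edgeR's interaction term, Benjamini-Hochberg adjusted. The log2 change of the difference was -2.01 for Ung (adjusted p = 0.00150), -1.51 for Ercc6 (adjusted p = 0.0358) and 1.09 for Neil3 (adjusted p = 0.0479). The Ercc6 call was lost in 15 of 20 cases with 1 embryo left out and the Neil3 call in 12 of 20, and both were lost without the filter on low counts and with the replicate block.

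A single embryo stood far from the rest of its group in 10 of 102 groups examined for the 17 named genes. The nominal rate of the rule is about 1 in 20. The groups share embryos and the genes were named from these data, so the count is a description and was not tested against that rate. In WT zygotes Pms1 had 112 CPM in replicate 2 (others 74.6 to 81.4), Ercc5 18.9 CPM in replicate 4 (others 25.6 to 27.2) and Parp1 25.7 CPM in replicate 4 (others 33.8 to 36.03). Nhej1 had 60.3 CPM in R442Q zygote replicate 3 (others 28.1 to 36.8), and Neil3 had 18.9 CPM in WT late 2-cell replicate 3 (others 11.0 to 12.05). R442Q blastocyst replicate 7 had 1921 FPKM of Parp1 (others 158 to 560) and 0.18 FPKM of Parp2 (others 27.3 to 45.8). R442Q blastocyst replicate 5 had 1.91 FPKM of Neil3 (others 0.02 to 0.60) and 2.65 of Ercc6 (others 0.06 to 1.12), and WT blastocyst replicate 7 had 2.64 FPKM of Ercc6 (others 0.15 to 0.87).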

How the results depend on the processing

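No named gene changed direction in the comparison it is named for under the alternatives run, while some members that were not called did. In the stage changes 25 to 29 members were called in WT and 30 to 32 in R442Q over all alternatives, where 57.7% to 64.7% and 60.8% to 67.8% of all genes were called with DESeq2, RLE or the replicate block and 33.3% and 38.4% without a filter. In zygotes 7 members were called with DESeq2 (16.9% of all genes against 13.2%) and 0 (5 at an unadjusted p under 0.05) with the stages fitted together, where 270 of all genes were called in place of 1643. At late 2-cell the count of members was 3 with DESeq2 (Ung, Ercc6 and Parp1), 6 with the stages fitted together (4 lower, and Neil3 and Nhej1 higher) and 0 with length and GC trends removed (2 at an unadjusted p under 0.05), and 0 to 2 when embryos were left out. All genes called at late 2-cell were 1556 with DESeq2, 889 without a filter, 169 with the trends removed, 2507 with the stages together, and 142 to 891 when embryos were left out. In blastocysts 0 genes were called without a filter and 3 with TMM scaling, and 0 to 30 when embryos were left out (30 without WT replicate 7), but never a member. The interaction was called for 6 members with DESeq2 (15.0% of all genes against 10.1%), 1 without a filter (4.59% of all genes) and 1 to 4 when embryos were left out, and for 1089 to 2311 of all genes when embryos were left out. For the named genes, in the comparisons they are named for, 44 gene-level values lost their call, most of them the Ercc6 and Neil3 interactions. Calls of other members were lost too and are not in that count. Trp53bp1 in the WT stage change is 1 of these, with the replicate block (adjusted p = 0.0974). Causes were not tested. Fitting the stages together changed the genes tested (16199), their scaling and the estimate of the spread at once.

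The replicate numbers of the titles gave no sign of pairing. Deviations of same-numbered embryos correlated at -0.23 to 0.27. Of the numbers, 1 of 5 zygote, 1 of 4 late 2-cell and 1 of 7 blastocyst ones correlated best with its own. The sample descriptions number some zygotes and late 2-cell embryos otherwise. Pairing by those numbers was not tested, and the replicate block uses the title numbers. With the replicate block 4 members were called in zygotes (9.80% of all genes), 0 at late 2-cell (6 at an unadjusted p under 0.05; 58 of all genes), 0 of all genes in blastocysts, and 1 member (1085 of all genes) in the interaction.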
